A study of Homo sapiens with 36 samples.

Results

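The interferon response genes are 42 genes that cells switch on after type I or type III interferon, chosen here as a named list and read through the gene symbols of the array's probe annotation. Of the 42, 41 had a listed probe (STAT2 had none), and 38 passed the filter on dim probes, which asked for a detection p under 0.01 on each of the 3 arrays of some group; 11048 genes of the whole series passed it. MX2 and CMPK2 were above background on 0 of 36 arrays and RSAD2 on 2, both of shATM-3, so these 3 were not tested. Of the 38 tested genes, 17 were above background in all 12 groups, 15 in 4 to 11 groups, and 6 (IFI27, MX1, OAS2, IFITM1, BST2 and SAMD9L) in 1 to 3 groups. RIGI is also known as DDX58.

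Expression was read from 36 Illumina BeadChip arrays, 3 biological replicates in each of 12 groups, all of MCF-10A cells per the labels, a non-transformed human mammary epithelial line. The 10 knockdown lines carried a lentiviral short hairpin RNA, kept stably, against the DNA damage kinases ATM (shATM-3, shATM-1), ATR (shATR-4, shATR-3), CHEK1 (shCHK1-4, shCHK1-3) and CHEK2 (shCHK2-1, shCHK2-2) or against TP53BP1, the gene of the adaptor protein 53BP1 (sh53BP1-2, sh53BP1-1). The controls were cells with a scrambled hairpin (shControl) and wild type cells, labelled as mock. All were grown in the same medium with no interferon, virus or damaging agent named in the labels, with 200000 cells seeded per 10 cm plate and the harvest 48 hours later. The sources used here do not say whether a line was 1 clone or a pool.

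Interferons bind cell surface receptors, whose Janus kinases activate transcription factors. Type I and type III interferons lead to a complex that contains STAT2 and IRF9 and binds the interferon-stimulated response element (ISRE) in the promoters of antiviral genes, whereas the response to type II interferon runs through the gamma-activated site (GAS). The products block viral entry, RNA stability and translation, and several of them (IRF7, IRF9, RIGI, IFIH1) amplify the response. A low level of this programme is also seen in epithelial cells without infection.

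As a guide to the data that follow, promoter stretches are shown for ISG15, IFIT1, IFI6 and PARP12, which hold the ISRE letters (GAAA, any 2 bases, GAAA) and were called higher in 1 hairpin line than in the other for all 4 kinases. IRF9, called in the same 4 comparisons, and IRF1, called in none of those 4, hold the GAS letters TTCNNNGAA. EPSTI1 and BST2 hold ISRE letters and were called higher in none of the 4. Sequences are from RefSeq (GRCh38.p14), 5′ to 3′ on the gene's strand and upstream of the gene's start, with the matched letters on either strand in capitals (ISRE in all but IRF9 and IRF1, where they mark GAS).
ISG15 (chr1:1013359-1013424, plus strand): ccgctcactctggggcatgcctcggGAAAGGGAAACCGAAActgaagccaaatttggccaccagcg
IFIT1 (chr10:89392482-89392554, plus strand): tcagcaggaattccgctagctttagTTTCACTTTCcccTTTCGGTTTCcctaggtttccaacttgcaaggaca
IFI6 (chr1:27672251-27672373, minus strand): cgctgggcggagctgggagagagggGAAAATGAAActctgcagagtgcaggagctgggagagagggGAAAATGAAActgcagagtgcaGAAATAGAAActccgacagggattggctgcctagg
PARP12 (chr7:140062952-140062986, minus strand): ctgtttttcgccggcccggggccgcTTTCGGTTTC
EPSTI1 (chr13:42992257-42992316, minus strand): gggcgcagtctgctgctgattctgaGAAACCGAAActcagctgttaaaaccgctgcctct
BST2 (chr19:17405720-17405785, minus strand): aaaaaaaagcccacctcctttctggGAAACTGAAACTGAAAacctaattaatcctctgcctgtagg
IRF9 (chr14:24161177-24161236, plus strand): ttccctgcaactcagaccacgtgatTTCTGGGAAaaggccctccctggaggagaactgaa
IRF1 (chr5:132490863-132490922, minus strand): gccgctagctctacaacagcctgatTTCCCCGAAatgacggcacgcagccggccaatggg

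The window searched ran from 250 bases before to 50 bases after a start of each gene, on both strands, and was given for 34 of the 42 genes. For IFI27, DDX60 and XAF1 this start lay inside the span of the gene. Where a listed gene had several windows, the first was searched, whereas the share over all windows counts each one. ISRE letters were found in 21 of 34 windows (61.8%), against 1255 of all 35116 windows (3.57%). GAS letters were found in 10 of 34 (29.4%), against 7.66% of all windows. The 2 ISRE matches of ISG15 overlapped each other, as did those of BST2, and IFI6 held 3 matches. A match describes the letters only.

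Several facts of the series bear on these comparisons. Each array had 47231 probes, of which 33.5% to 38.3% were above background, and its mean signal was 460 to 677 intensity units. The target mRNA stood at 48.8% (shATM-3) and 53.8% (shATM-1) of shControl for ATM, 82.9% (shCHK1-4) and 84.0% (shCHK1-3) for CHEK1, 50.2% (shCHK2-1) and 93.2% (shCHK2-2, not called) for CHEK2, and 19.8% (sh53BP1-2) and 15.99% (sh53BP1-1) for TP53BP1, and ATR was not readable. MTAP, CDKN2A and CDKN2B were above background on 24 of 24 arrays of the 8 kinase lines and on 0 of the other 12 arrays, so that for these lines a hairpin effect against either control cannot be told apart from whatever set the lines apart in these genes. Comparing the hairpin lines of 1 kinase with each other leaves both sides above background for these 3 genes. All 7 basal epithelial markers with a listed probe (among them KRT5, KRT14 and EGFR) were above background in all 12 groups. So were CD14, VIM and TWIST1. Of the leukocyte and endothelial markers, PTPRC, CD3E, NKG7 and VWF were above background on 0 arrays, but CSF1R and PECAM1 were on 12 each, in 4 whole groups, LYZ on 7 and CDH5 on 4. The summed linear signal of the 2 tested endothelial markers, PECAM1 and CDH5, was 137 (sh53BP1-1) to 197 (wild type) in the sh53BP1 lines and the controls. In the 8 kinase lines it was 46 (shCHK1-4) to 50 (shCHK2-1). Among fibroblast and mesenchymal markers, CDH2 was above background on 32 arrays, THY1 on 24 and DCN on 5.

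The listed genes were highest in shATM-3 and shATR-4 and lowest in the sh53BP1 lines. Averaged over the 38 genes, each scaled to mean 0 and SD 1 over the 12 groups, the level was 1.33 in shATM-3 and 1.12 in shATR-4, followed by 0.35 in shCHK2-1 and 0.06 in shCHK1-4. The partner lines stood at -0.26 (shATM-1), -0.32 (shATR-3), -0.49 (shCHK2-2) and -0.15 (shCHK1-3), the sh53BP1 lines at -0.58 (sh53BP1-2) and -0.87 (sh53BP1-1), shControl at -0.17 and wild type at -0.03. shATM-3 had the highest mean of the 12 groups for 21 genes and shATR-4 for 9, these lines took the first 2 places for 24 of 38, and sh53BP1-1 had the lowest mean for 17. The shares of all genes with these orders were not computed, so the counts describe the listed genes without a background. The range of group means ran from 0.46 (IFI44L) to 5.38 log2 units (IFITM3).

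**Figure D1:**
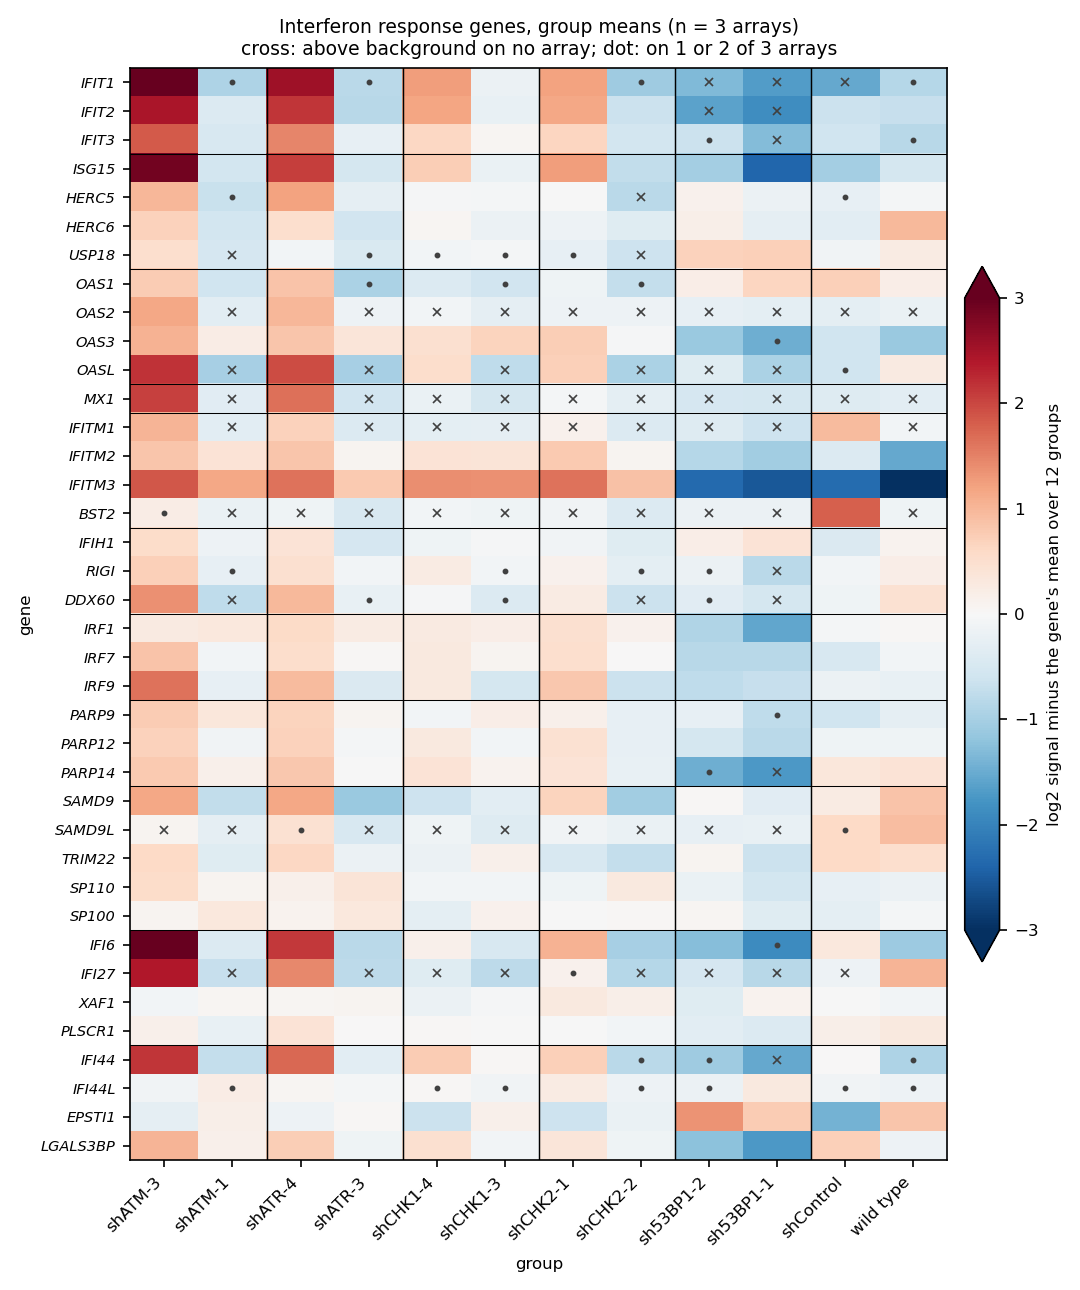
Group means of the 38 tested genes (rows, by role) in 12 groups (columns, with the hairpin lines of a target side by side), as log2 signal minus the gene's own mean over the groups. Crosses mark groups with 0 arrays above background and dots groups with 1 or 2 of 3; the shATM-3 and shATR-4 columns hold most of the highest values, and IFITM3 instead separates the 8 kinase lines from the other 4 groups.

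Members called in each pair of hairpin lines were counted first (limma, adjusted p under 0.05 over all genes, n = 3 arrays per group). In shATM-3 against shATM-1, 29 of 38 genes were higher and 1 lower, where 43.6% of all genes were called (24.4% higher, 19.2% lower). In shATR-4 against shATR-3, 28 were higher and 0 lower (all genes: 41% called, 24.1% higher, 16.8% lower). Both counts include MX1 and OAS2, which passed the filter on dim probes through shATM-3 and shATR-4 alone. In shCHK2-1 against shCHK2-2, 21 were higher and 2 lower (45.4% called, 26.2% higher, 19.2% lower).

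In shCHK1-4 against shCHK1-3, 12 were higher and 3 lower (all genes: 32.4% called, 20.3% higher, 12.1% lower), a share nearer that of all genes than in the other kinase pairs. In sh53BP1-2 against sh53BP1-1, 11 were higher and 0 lower (7.4% called, 5.03% higher, 2.36% lower), but the count lay between 6 and 8 with each of the 6 arrays left out in turn. The median difference of the 38 genes was 0.98, 0.89, 0.52, 0.17 and 0.29 log2 units in the ATM, ATR, CHEK2, CHEK1 and 53BP1 pairs, against 0.03, 0.04, 0.04, 0.05 and 0.00 for all genes. Genes above background on all 6 arrays gave 19 higher and 1 lower of 25 (ATM), 19 and 0 of 27 (ATR), 13 and 2 of 23 (CHEK2), 9 and 3 of 26 (CHEK1) and 7 and 0 of 20 (53BP1). Over all genes that were above background on all 6 arrays, the shares called higher and lower were 24.5% and 21.6% (ATM), 24.2% and 18.6% (ATR), 26.6% and 21.8% (CHEK2), 21.7% and 13.2% (CHEK1) and 4.61% and 2.52% (53BP1).

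Other measures moved with these pairs. The summed linear signal of the 7 basal epithelial markers was 23385 in shATM-3 and 15811 in shATM-1, 27328 in shATR-4 and 16051 in shATR-3, 21736 in shCHK2-1 and 15567 in shCHK2-2, and 19152 in shCHK1-4 and 15926 in shCHK1-3, while in sh53BP1-2 (23230) and sh53BP1-1 (23162) it was about equal. The sum of the 6 tested fibroblast and mesenchymal markers was 7688 in shATM-3 and 6334 in shATM-1, 4041 in shATR-4 and 6024 in shATR-3, 9706 in shCHK2-1 and 5595 in shCHK2-2, 7626 in shCHK1-4 and 6098 in shCHK1-3, and 779 in sh53BP1-2 and 790 in sh53BP1-1. The sum of the 2 tested leukocyte markers, CD14 and CSF1R, was 356 in shATM-3 and 273 in shATM-1, 364 in shATR-4 and 203 in shATR-3, 343 in shCHK2-1 and 199.7 in shCHK2-2, 159 in shCHK1-4 and 164 in shCHK1-3, and 636 in sh53BP1-2 and 705 in sh53BP1-1. The part of these markers in the result was not tested. In such bulk samples a smaller share of cells that express a gene and less RNA per cell cannot be told apart.

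**Figure D2:**
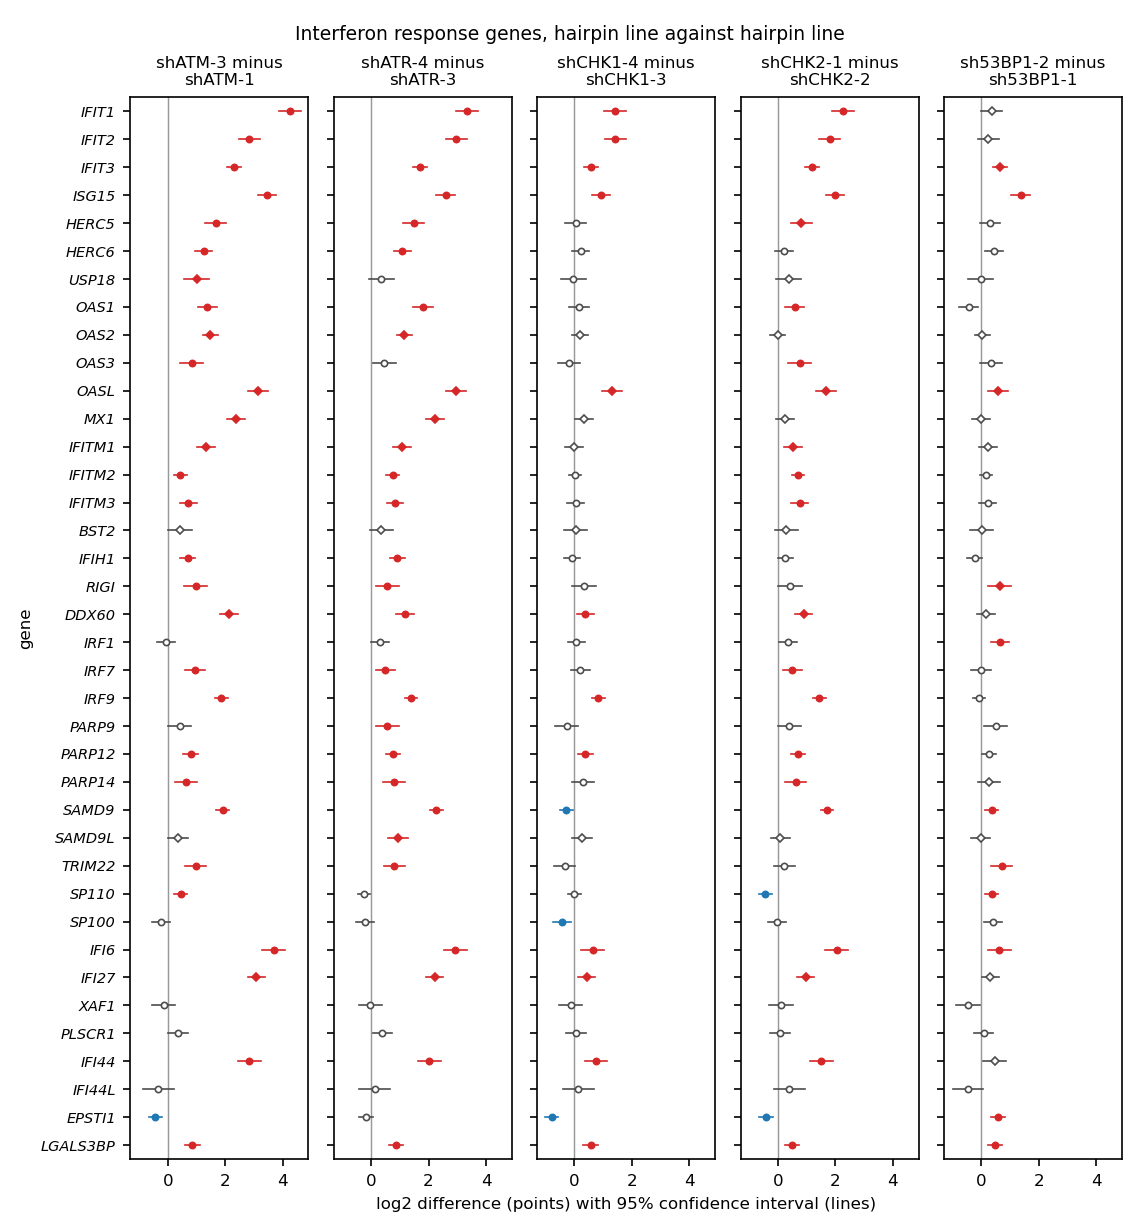
Log2 difference between the hairpin lines of each target for the 38 tested genes (points) with 95% confidence intervals (lines). Filled points were called (red higher, blue lower in the first line), open points were not, and diamonds mark genes with 0 arrays above background in 1 or both lines; the points lie farthest right in the ATM pair, where IFIT1 reached 4.25.

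The IFIT proteins bind foreign RNA and block its translation. IFIT1 read 9.64, 9.48 and 9.54 log2 units on the shATM-3 arrays, against 5.50, 4.98 and 5.44 in shATM-1. It read 8.75, 8.64 and 8.91 in shATR-4, against 5.71, 5.47 and 5.08 in shATR-3. The ranges of the 2 lines did not overlap in either pair. IFIT1 was 19-fold higher in shATM-3 than in shATM-1 (log2 4.25 ± 0.183, SE, adjusted p 2.57e-17) and 10.2-fold higher in shATR-4 than in shATR-3 (adjusted p 3.31e-15). The CHEK2 and CHEK1 pairs gave 4.84-fold (7.31, 7.59 and 7.42 in shCHK2-1, against 5.55, 4.70 and 5.24 in shCHK2-2) and 2.68-fold (7.38, 7.27 and 7.78 in shCHK1-4, against 6.07, 6.20 and 5.90 in shCHK1-3). IFIT1 was above background on 2 of 3 arrays of shATM-1 and of shATR-3 and on 1 of 3 of shCHK2-2, so the folds for ATM, ATR and CHEK2 are partly set against signals at background. In the sh53BP1 lines and shControl IFIT1 was above background on 0 arrays. IFIT2 and IFIT3 were higher in the same 4 pairs: IFIT2 by 2.84, 2.97, 1.81 and 1.42 and IFIT3 by 2.31, 1.70, 1.20 and 0.57 log2 units in the ATM, ATR, CHEK2 and CHEK1 pairs.

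ISG15 is a ubiquitin-like protein that is conjugated to other proteins, HERC5 is its ligase and USP18 removes it. ISG15 read 11.12, 11.23 and 10.88 in shATM-3 and 7.49, 7.65 and 7.70 in shATM-1. Its values were 10.26, 10.18 and 10.31 in shATR-4 and 7.46, 7.84 and 7.67 in shATR-3. These ranges lay far apart, and shCHK2-1 (9.51, 9.43 and 9.34) and shCHK1-4 (9.14, 8.74 and 8.85) came between them. ISG15 was higher in all 5 pairs, 11-fold for ATM, 6.03-fold for ATR, 3.99-fold for CHEK2, 1.90-fold for CHEK1 and 2.58-fold for 53BP1. The last pair read 7.33, 6.94 and 7.24 in sh53BP1-2, against 5.72, 6.07 and 5.61 in sh53BP1-1 (adjusted p 2.94e-07). HERC5 was higher in 3 pairs (ATM 1.67, ATR 1.49 and, with 0 of 3 shCHK2-2 arrays above background, CHEK2 at least 1.38-fold) and HERC6 in 2 (1.26 and 1.09 for ATM and ATR). USP18 was called in the ATM pair only, as at least 1.74-fold higher (adjusted p 0.000217), and its highest means were those of sh53BP1-1 (6.38) and sh53BP1-2 (6.36).

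The oligoadenylate synthetases OAS1, OAS2 and OAS3 make a second messenger that leads to the decay of RNA, OASL enhances RNA sensing by RIG-I, and MX1 is a GTPase that traps viral nucleocapsids. OASL was above background on all arrays of shATM-3 (7.82, 7.98 and 7.70), shATR-4 (7.54, 7.55 and 7.76), shCHK2-1 (6.28, 6.39 and 6.50), shCHK1-4 (6.39, 6.04 and 6.17) and wild type (6.29, 5.93 and 5.57). It was above background on 0 arrays of their partner lines and of the sh53BP1 lines, and on 1 of shControl. The difference was at least 5.52-fold for ATM, 4.86-fold for ATR, 1.95-fold for CHEK2 and 1.80-fold for CHEK1 (adjusted p 2.64e-15, 9.94e-15, 2.83e-09 and 6.19e-07). These bounds set the brighter line against the lowest signal above background on each array of the dimmer line, or the probe's own signal where that is higher.

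MX1 and OAS2 were above background in shATM-3 and shATR-4 only, and so passed the filter on dim probes through these lines alone. Their calls in the ATM and ATR pairs, and their part in the counts and averages above, are not independent of that filter. MX1 read 7.25, 6.98 and 6.72 in shATM-3 and 6.84, 6.64 and 6.30 in shATR-4, and every other array lay at or below 5.21, with 0 of 30 above background. It was at least 3.07-fold higher in shATM-3 than in shATM-1 and at least 2.38-fold higher in shATR-4 than in shATR-3 (adjusted p 2.21e-13 and 8.06e-13). OAS1 was higher in 3 pairs (2.59-fold for ATM, 3.51-fold for ATR and 1.51-fold for CHEK2), but shATM-3 (7.04, 6.92 and 6.95) overlapped shControl (7.10, 6.71 and 6.95), with a difference of 0.05 log2 units (95% interval -0.28 to 0.39). OAS3 was called in the ATM pair (1.78-fold) and the CHEK2 pair (1.69-fold), and not in the ATR pair (0.46 ± 0.190, adjusted p 0.0524). A second OAS3 probe, above background in 4 groups, read 0.11 and 0.55 in the ATM and CHEK2 pairs (adjusted p 0.737 and 0.0561).

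**Figure D3:**
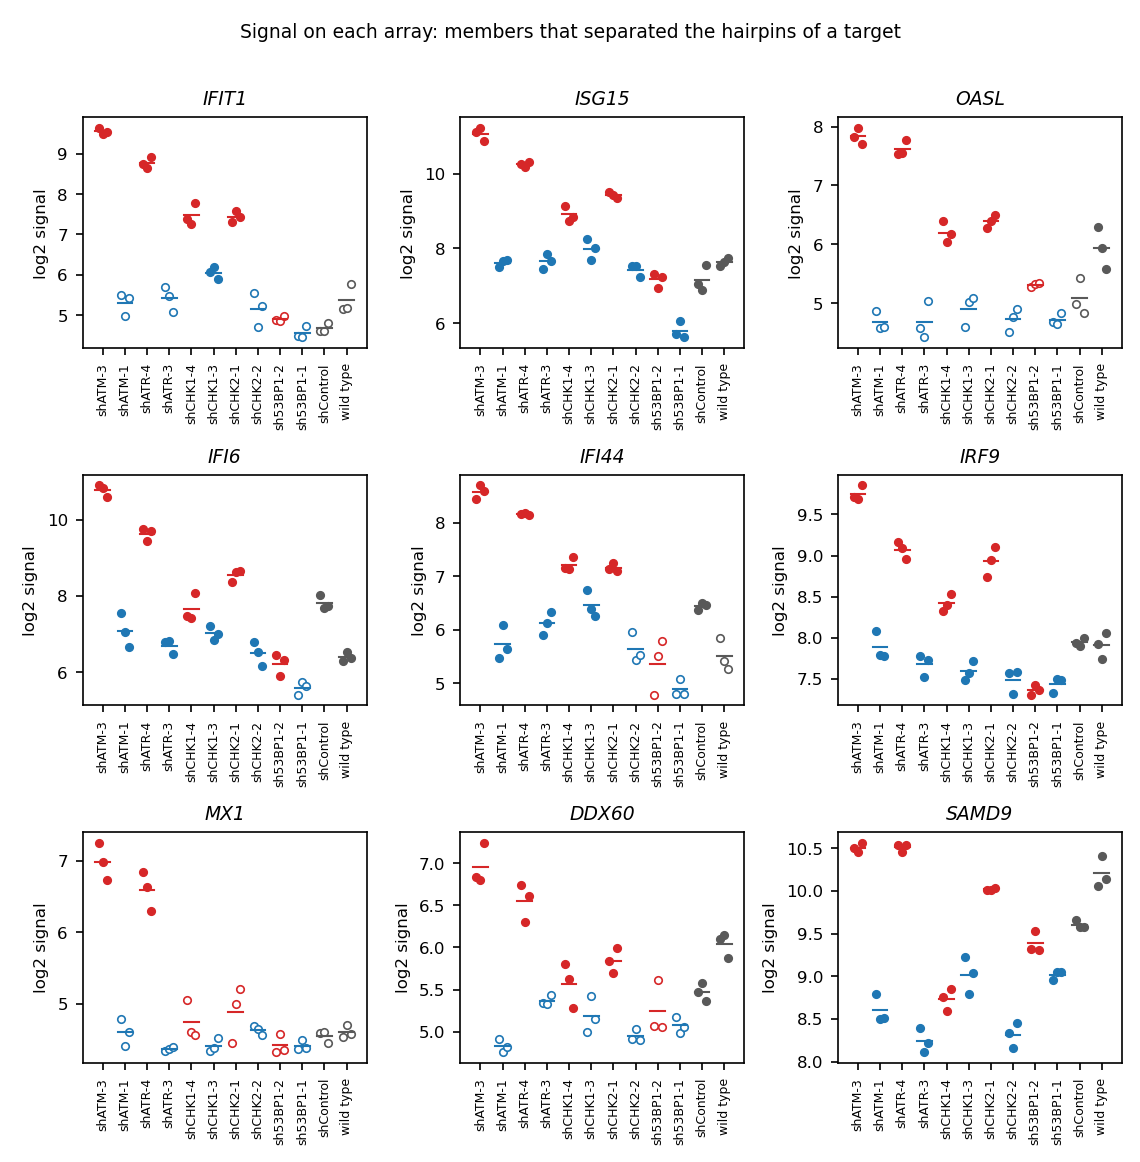
Log2 signal on each of the 36 arrays (points; lines are group means) for 9 genes. Red marks the first-named line of each hairpin pair, blue the second and grey the controls, filled where all 3 arrays of the group were above background; the shATM-3 and shATR-4 points of IFIT1, ISG15, OASL, IFI6, IFI44 and MX1 lie above those of every other group.

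The transcription factors differed among themselves. IRF9, the DNA-binding partner of STAT2, read 9.71, 9.68 and 9.86 in shATM-3, against 8.08, 7.79 and 7.78 in shATM-1. It read 9.17, 9.09 and 8.95 in shATR-4, against 7.78, 7.52 and 7.73 in shATR-3. The lines of a pair did not overlap, nor did they for CHEK2 (8.74, 8.94 and 9.10 in shCHK2-1, against 7.57, 7.31 and 7.58 in shCHK2-2) and CHEK1 (8.32, 8.40 and 8.54 in shCHK1-4, against 7.49, 7.57 and 7.72 in shCHK1-3). The folds were 3.65 for ATM, 2.62 for ATR, 2.72 for CHEK2 and 1.78 for CHEK1 (adjusted p at most 4.98e-07), and the 53BP1 pair was not called (-0.07 ± 0.106). IRF7, an activator of interferon genes, was higher in the ATM (0.96), ATR (0.50) and CHEK2 (0.50) pairs. The ATR call was lost without shATR-4 replicate 3 (0.46) and the CHEK2 call without shCHK2-2 replicate 2 (0.35). A second IRF7 probe, above background in 4 groups, was called for ATM (0.93) but not for ATR (0.32, adjusted p 0.298) or CHEK2 (0.41, adjusted p 0.163). IRF1, a factor induced mainly by interferon gamma, was called in no kinase pair, with differences between -0.06 and 0.35.

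The sensors RIG-I (gene RIGI) and MDA5 (IFIH1) recognise viral RNA, and DDX60 assists them. DDX60 was at least 3.02-fold higher in shATM-3 (6.84, 6.80 and 7.25) than in shATM-1 (4.92, 4.76 and 4.82), where it was above background on 0 arrays. It was 2.27-fold higher in shATR-4 than in shATR-3, at least 1.33-fold higher in shCHK2-1 than in shCHK2-2, and 1.30-fold higher in shCHK1-4 than in shCHK1-3. The CHEK1 call, with overlapping arrays (adjusted p 0.0467), was lost without shCHK1-3 replicate 1 (0.28) or 3 (0.36) or shCHK1-4 replicate 1 (0.26) or 2 (0.35). IFIH1 was higher in the ATM (0.70 ± 0.128) and ATR (0.91) pairs. RIGI was called in the ATM (0.97 ± 0.200) and ATR (0.57, adjusted p 0.0232) pairs, and the ATR call was lost without shATR-3 replicate 1 or 3 (0.53 each) or shATR-4 replicate 1 (0.55) or 2 (0.57).

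IFI6 and IFI27 are small proteins of intracellular membranes, among them those of mitochondria, and both are sensitive readouts of interferon. IFI6 read 10.90, 10.82 and 10.59 in shATM-3, against 7.54, 7.06 and 6.65 in shATM-1, a 12.9-fold difference (log2 3.68 ± 0.191, adjusted p 1.65e-15). It was 7.62-fold higher in shATR-4 than in shATR-3, 4.13-fold higher in shCHK2-1 than in shCHK2-2, 1.56-fold higher in shCHK1-4 than in shCHK1-3 and 1.54-fold higher in sh53BP1-2 than in sh53BP1-1. In all 5 pairs the arrays did not overlap, but the CHEK1 call was lost without shCHK1-4 replicate 3 (0.43), and the 53BP1 call without any of 5 of its 6 arrays (0.52 to 0.70; the exception is sh53BP1-2 replicate 2). A second IFI6 probe gave 2.55, 1.45, 0.77, 0.06 and 0.24 in the ATM, ATR, CHEK2, CHEK1 and 53BP1 pairs, of which the first 3 were called.

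IFI27 was at least 4.85-fold higher in shATM-3 (7.88, 7.55 and 7.51) than in shATM-1 and at least 2.53-fold higher in shATR-4 (6.89, 6.71 and 6.43) than in shATR-3, both partners having 0 arrays above background. Wild type (6.26, 6.07 and 6.43) was the only other group above background on all arrays. IFI27 was also called in the CHEK2 pair (0 of 3 shCHK2-2 and 2 of 3 shCHK2-1 arrays above background) and the CHEK1 pair (0 of 6 arrays), for which no fold is given. The call in the CHEK1 pair was lost without shCHK1-3 replicate 1 or 2 (0.40 and 0.39) or shCHK1-4 replicate 1 (0.35). IFI44, of unsettled biochemical function, was 7.19-fold, 4.08-fold, 2.87-fold and 1.68-fold higher in the ATM, ATR, CHEK2 and CHEK1 pairs. The probe used for its paralogue IFI44L was called in no pair (group means 5.38 to 5.84), whereas a second IFI44L probe, above background in 2 groups, read 1.31 (adjusted p 1.09e-08) for ATM and 0.67 (adjusted p 0.000273) for ATR.

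PARP12 and PARP14 belong to the ADP-ribosyltransferases, and SAMD9 restricts poxviruses. PARP12 rose in all 4 kinase pairs, by 0.80, 0.76, 0.70 and 0.37 log2 units for ATM, ATR, CHEK2 and CHEK1, and the last call was lost without shCHK1-3 replicate 1 (0.30) or 3 (0.33) or shCHK1-4 replicate 1 (0.34) or 2 (0.33). PARP14 was called in the first 3 of these pairs (0.63, 0.80 and 0.62). SAMD9 read 10.51, 10.46 and 10.57 in shATM-3, against 8.79, 8.50 and 8.51 in shATM-1. It read 10.54, 10.46 and 10.54 in shATR-4, against 8.40, 8.11 and 8.22 in shATR-3. The high lines were tightly grouped and far from their partners, by 3.75-fold and 4.82-fold, and shCHK2-1 was 3.27-fold above shCHK2-2. In the CHEK1 pair SAMD9 was instead lower (-0.29 ± 0.107, adjusted p 0.04) with overlapping arrays, a call lost without shCHK1-3 replicate 1 (-0.18) or 3 (-0.28) or shCHK1-4 replicate 1 (-0.30) or 2 (-0.22).

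TRIM22, a RING-finger antiviral protein, was higher in the ATM (0.98), ATR (0.80) and 53BP1 (0.72) pairs, and the last call was lost without sh53BP1-1 replicate 2 (0.55). SP110, a nuclear body protein, was higher in the ATM pair (0.46) and lower in the CHEK2 pair (-0.44). LGALS3BP, a secreted glycoprotein, was higher in all 5 pairs (0.86, 0.86, 0.49, 0.56 and 0.47 for ATM, ATR, CHEK2, CHEK1 and 53BP1), the last call being lost without sh53BP1-1 replicate 3 (0.43) or sh53BP1-2 replicate 2 (0.38). EPSTI1 went the other way: it was lower in shATM-3 (-0.43), shCHK2-1 (-0.41) and shCHK1-4 (-0.80 ± 0.117, adjusted p 4.02e-06) than in their partners, and higher in sh53BP1-2 than in sh53BP1-1 (0.58). PARP9, which pairs with a ubiquitin ligase, was called in the ATR pair only (0.57, adjusted p 0.0186), a call lost without shATR-3 replicate 2 (0.53) or 3 (0.51) or shATR-4 replicate 1 (0.53), whereas a second PARP9 probe gave 1.23, 1.23 and 1.02 for ATM, ATR and CHEK2 (all 3 called). SP100, a nuclear body scaffold, was lower in the CHEK1 pair (-0.42, adjusted p 0.0326), a call lost without shCHK1-3 replicate 1 (-0.45) or 3 (-0.27) or shCHK1-4 replicate 1 (-0.44) or 3 (-0.33). SAMD9L, the SAMD9 paralogue, was above background on all arrays in wild type alone. It was called higher in the ATR pair, although neither ATR line was above background on all of its arrays, so no fold is given. The probes used for XAF1, PLSCR1, BST2 and IFI44L were called in no pair, though a second XAF1 probe, above background in 2 groups, was lower for ATM (-0.75), CHEK2 (-0.84) and CHEK1 (-0.67).

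In the 53BP1 pair the 11 higher genes were ISG15, IFIT3, IFI6, OASL, RIGI, IRF1, SAMD9, SP110, TRIM22, EPSTI1 and LGALS3BP. ISG15, IFIT3, IRF1 and EPSTI1 were called with each of the 6 arrays left out in turn. Other IFIT3 probes, above background in 6 groups and in 1, read 0.12 and -0.001 in this pair (adjusted p 0.871 and 0.998). IRF1 was 1.57-fold higher in sh53BP1-2 (8.69, 8.48 and 8.44) than in sh53BP1-1 (7.73, 8.03 and 7.90), without overlap. IFIT3 was above background on 1 sh53BP1-2 array and 0 sh53BP1-1 arrays, and OASL on 0 of 6, so neither has a fold. The OASL call was lost without any of 5 arrays (0.55 to 0.61, the exception being sh53BP1-1 replicate 3). A second OASL probe was not called in this pair (0.28, adjusted p 0.367). RIGI was lost without any of 5 arrays (0.53 to 0.66; the exception is sh53BP1-2 replicate 3), SAMD9 (0.37) without any sh53BP1-1 array or sh53BP1-2 replicate 2 (0.30 to 0.38), and SP110 (0.36) without sh53BP1-1 replicate 2 or 3 or sh53BP1-2 replicate 1 or 3 (0.28 to 0.36).

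Called higher in all 4 kinase pairs were 12 genes: ISG15, IFIT1, IFIT2, IFIT3, IFI6, IFI27, IFI44, OASL, IRF9, PARP12, DDX60 and LGALS3BP. The share of all genes called higher in all 4 was not computed. In the single pairs it was 24.4% (ATM), 24.1% (ATR), 26.2% (CHEK2) and 20.3% (CHEK1). The order of the lines was chosen with earlier results known, so the count of 12 describes the listed genes only. IFI27 counts among them although its CHEK1 call rests on 6 arrays not above background, and without it 11 genes remain. The CHEK1 calls of IFI6, PARP12 and DDX60 were also lost without certain single arrays. Second probes of IFI6 (0.06) and OASL (0.10) were not called in the CHEK1 pair, nor was that of OASL in the CHEK2 pair (0.38). Of the 12 genes, 10 had a promoter window, and 9 of these, IFI27 included, held ISRE letters (all but IRF9). The same letters were held by 5 of 6 called in 3 pairs, 3 of 5 called in 2, 0 of 3 called in 1 and 4 of 7 called in 0. The size of the difference between hairpins was compared between targets by an interaction term, a comparison added after the data were examined. The ATM pair exceeded the CHEK1 pair for 24 of 38 genes and the reverse held for 0 (10.6% of all genes called), and the ATR pair exceeded the CHEK1 pair for 22 (8.19%). The ATM pair exceeded the ATR pair for 6 genes (4.32% of all genes), namely ISG15, IFIT1, IFIT3, IFI27, DDX60 and SP110.

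Each line was next set against shControl, which all 10 comparisons share. BST2 passed the filter on dim probes through shControl alone, so its calls in these 10 comparisons are not independent of that filter. The same holds for MX1 and OAS2 in shATM-3 and shATR-4, against either control. In shATM-3 29 genes were higher and 2 lower (all genes: 58.3% called, 30.5% higher and 27.8% lower), and in shATM-1 11 were higher and 14 lower (66.6%, 33.6% and 33.1%). In shATR-4 28 were higher and 1 lower (60.1%, 31.6% and 28.5%), and in shATR-3 11 were higher and 11 lower (67.5%, 33.4% and 34.1%). Among the listed genes, calls in shATM-3 and shATR-4 thus ran mostly upward, while in shATM-1 and shATR-3 they were near evenly split, as over all genes.

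In shCHK2-1 19 genes were higher than in shControl and 6 lower (all genes: 62.3% called, 31.9% higher and 30.4% lower), and in shCHK2-2 7 were higher and 15 lower (68.4%, 33.3% and 35.1%). In shCHK1-4 17 were higher and 6 lower (62.4%, 32.6% and 29.8%), and in shCHK1-3 12 were higher and 10 lower (67.2%, 32.9% and 34.3%). SAMD9 was above shControl by 0.91 log2 units in both shATM-3 and shATR-4, and it fell by 1.36 units in shATR-3 and by 1.003 units in shATM-1 (all 4 called).

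Against wild type, 26 genes were higher and 2 lower in shATM-3 (all genes: 56.1% called, 28.2% higher and 27.9% lower), and 9 higher and 13 lower in shATM-1 (63.9%, 31.5% and 32.4%). In shATR-4 26 were higher and 3 lower (57%, 29.1% and 27.8%), and in shATR-3 7 and 12 (64.8%, 31.2% and 33.6%). In shCHK2-1 15 were higher and 6 lower (60.4%, 30.2% and 30.2%), in shCHK2-2 5 and 16 (66.3%, 31.8% and 34.5%), in shCHK1-4 12 and 8 (59.8%, 30.3% and 29.4%) and in shCHK1-3 9 and 9 (64.9%, 31% and 33.9%). SAMD9L passed the filter on dim probes through wild type alone, so its calls in every comparison with wild type are not independent of that filter. IFIT1, above background on 1 wild type array, was 18.2-fold higher than wild type in shATM-3, 10.6-fold in shATR-4, 4.20-fold in shCHK2-1 and 4.30-fold in shCHK1-4, and its log2 difference lay between -0.20 and 0.69 in their partners.

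IFITM3, a membrane protein that stops viruses at endosomes, followed the split of the kinase lines from the other groups more than the split of the hairpins. On the 24 kinase-line arrays it ran from 11.29 to 12.57, and on the other 12 from 7.08 to 8.68, so the sets did not overlap. It was above shControl by 4.19 in shATM-3, 3.47 in shATM-1, 3.94 in shATR-4 and 3.10 in shATR-3, and by 3.19 to 3.94 in the CHEK1 and CHEK2 lines. Between hairpins it was also higher in the ATM (0.72), ATR (0.83) and CHEK2 (0.76) pairs, as was IFITM2 (0.44, 0.75 and 0.70), which was 0.48 to 1.24 above shControl in the 8 kinase lines. IFITM1 was above background in shATM-3, shATR-4 and shControl only, and was at least 1.61-fold higher in shATM-3 than in shATM-1 and at least 1.31-fold higher in shATR-4 than in shATR-3 (adjusted p 3.38e-08 and 1.15e-06). The genes IFITM1, IFITM2 and IFITM3 are close in sequence, and whether the probes tell them apart was not tested. OAS3 shared this order, at 7.003 to 8.43 on the kinase-line arrays and 5.31 to 6.944 on the others, without overlap.

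Both sh53BP1 lines lay below the controls for most of the called genes. Against shControl 3 genes were higher and 22 lower in sh53BP1-1 (all genes: 59.6% called, 29.1% higher and 30.5% lower) and 4 higher and 17 lower in sh53BP1-2 (56.2%, 27.8% and 28.4%). Against wild type the counts were 4 higher and 24 lower in sh53BP1-1 (51.7%, 23.8% and 27.9%) and 3 higher and 17 lower in sh53BP1-2 (46.8%, 21.5% and 25.3%). In the same comparison the fibroblast and mesenchymal sum was 779 in sh53BP1-2 and 790 in sh53BP1-1, against 5229 in shControl and 1198 in wild type, and the leukocyte sum was 636 in sh53BP1-2 and 705 in sh53BP1-1, against 3145 in shControl and 1168 in wild type. The basal epithelial sum was 23230 and 23162 in these lines, against 15267 in shControl and 21773 in wild type, and the part of the markers in the result was not tested. IRF1, given above for the sh53BP1 lines, read 9.57, 9.40 and 9.17 in shControl and 9.47, 9.55 and 9.45 in wild type. The sh53BP1 arrays all lay below the control arrays, with differences from shControl of -0.84 in sh53BP1-2 and -1.49 log2 units in sh53BP1-1 (adjusted p 1.92e-05 and 7.98e-10).

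PARP14 was above background on 1 of 3 sh53BP1-2 arrays and on 0 of 3 sh53BP1-1 arrays, and on all 30 others. LGALS3BP read 6.44, 6.68 and 6.38 in sh53BP1-2 and 6.09, 6.06 and 5.93 in sh53BP1-1, against 8.39, 8.51 and 8.44 in shControl (log2 -1.95 and -2.42). IFIT2, above background on all 30 other arrays, was above it on 0 of the 6 sh53BP1 arrays. In the opposite direction, EPSTI1 was highest in sh53BP1-2 (9.40, 9.15 and 9.41), and USP18 was higher than in shControl by 0.79 in sh53BP1-2 and 0.81 in sh53BP1-1.

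shControl and wild type themselves differed, with 9 genes higher and 9 lower in shControl (30.5% of all genes called, 14.5% higher, 16% lower). BST2, which tethers budding virions, was above background on all arrays in shControl alone (7.01, 6.93 and 6.57, against 5.16, 5.02 and 4.61 in wild type). It was at least 2.99-fold higher in shControl than in wild type (adjusted p 4.74e-09). BST2 passed the filter on dim probes through shControl alone, so this call is not independent of the filter. EPSTI1 was 4.73-fold lower in shControl (6.74, 6.74 and 6.22, against 8.71, 8.81 and 8.91 in wild type). IFI27 was at least 1.97-fold lower and HERC6 2.44-fold lower in shControl, and IFI6 was 2.67-fold, IFITM3 2.28-fold and IFITM1 at least 1.66-fold higher. The calls of ISG15 (-0.47), IFIT1 (-0.68), OAS1 (0.52) and OAS3 (0.50) were lost without some single arrays: ISG15 without wild type replicate 3 (-0.42) or shControl replicate 1 (-0.42) or 2 (-0.34), and IFIT1 without wild type replicate 3 (-0.48). OAS1 was lost without wild type replicate 1 (0.47) or 3 (0.48) or shControl replicate 1 (0.43), and OAS3 without wild type replicate 2 (0.37) or 3 (0.50) or shControl replicate 1 (0.34) or 3 (0.52).

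**Figure D4:**
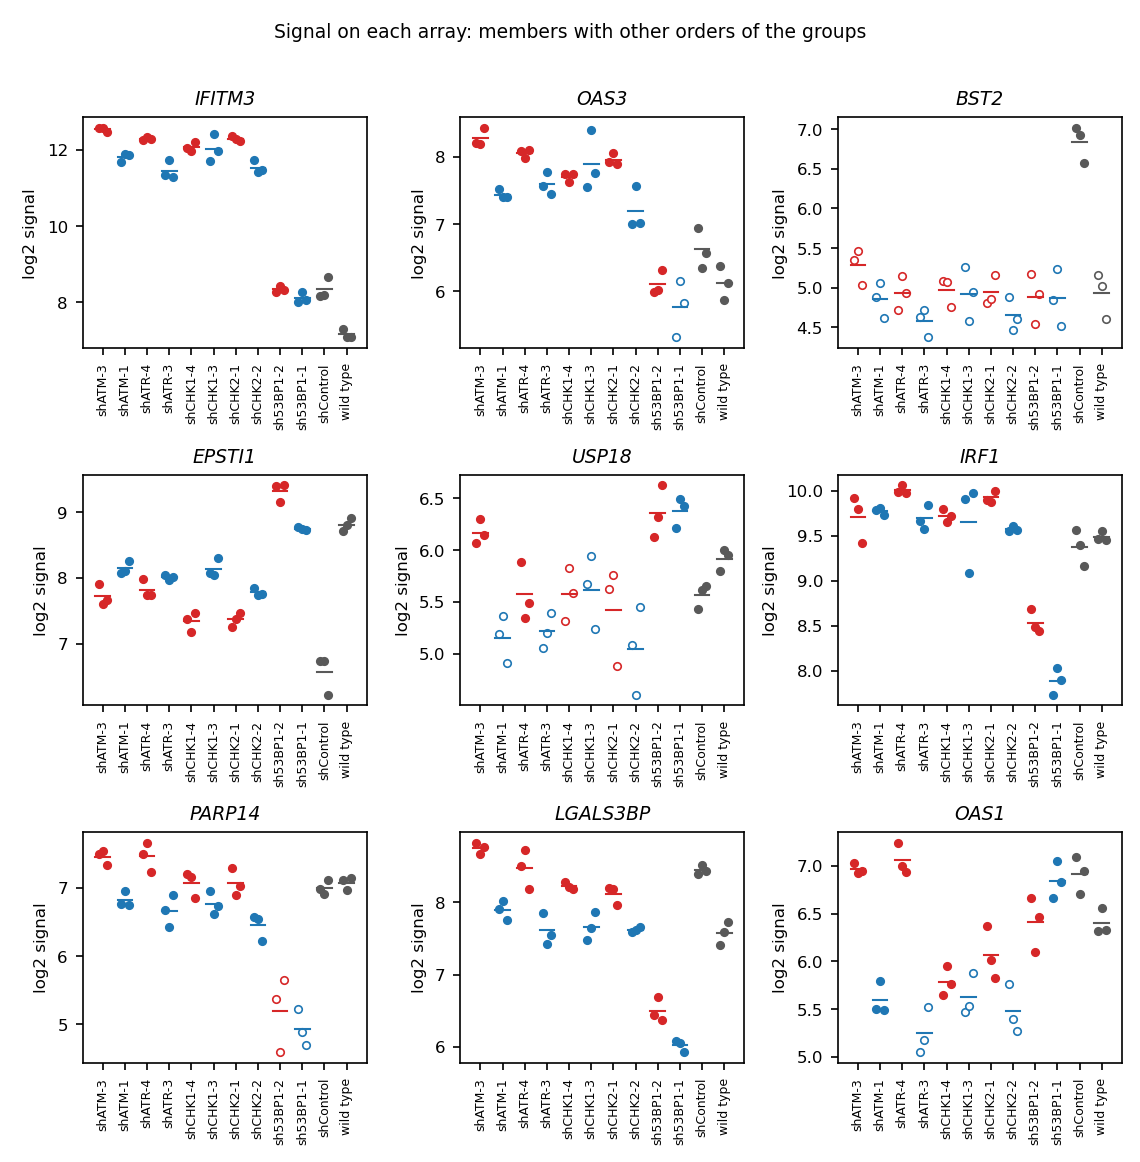
Log2 signal on each of the 36 arrays (points; lines are group means) for 9 genes whose order of groups differed, marked as in the plot of genes that separated the hairpins. IFITM3 and OAS3 split the 8 kinase lines from the rest, BST2 is bright in shControl, EPSTI1 is lowest in shControl and highest in sh53BP1-2, and IRF1, PARP14 and LGALS3BP are low in the sh53BP1 lines.

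Genes around the response were read from lists on the pathway. Of 9 listed interferons, only IFNE, an interferon of epithelia, was tested. IFNE was above background on all arrays of shATM-3, shATR-4, shCHK2-1, shCHK1-4 and shControl, and on 0 or 1 array of each other group. It was called higher in the first 4 than in their partners, with adjusted p of 0.000113 (ATM), 0.000295 (ATR), 6.11e-06 (CHEK2) and 0.00338 (CHEK1). The partners were above background on 1 of 3 arrays, shCHK2-2 on 0, so no fold is given. Its mean was 6.18 ± 0.15 in shATM-3 and 5.13 ± 0.34 in shATM-1 (SD, n = 3). IFNE lies in the same chromosome region as CDKN2A and MTAP.

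For the lists that follow, the share of all genes called higher was 24.4% (ATM), 24.1% (ATR), 26.2% (CHEK2), 20.3% (CHEK1) and 5.03% (53BP1). Of 13 tested receptors and JAK-STAT components, 9 were higher and 0 lower in the ATM pair, 7 and 0 in the ATR pair, 7 and 1 in the CHEK2 pair, 8 and 0 in the CHEK1 pair and 1 and 0 in the 53BP1 pair. The interferon gamma receptor IFNGR1 was higher by 0.77, 0.85, 0.51, 0.38 and 0.50 in these pairs, and the feedback inhibitor SOCS1, above background on 0 or 1 array of each partner line, was called higher in the kinase pairs. The receptor gene IFNLR1 was called higher by 0.34 (ATM), 0.48 (ATR), 0.73 (CHEK2) and 0.98 (CHEK1). It was above background on all arrays of the 8 kinase lines and on 0 arrays of shControl, wild type and both sh53BP1 lines. Of 14 tested genes of nucleic acid sensing, 7 were higher and 2 lower (ATM), 7 and 1 (ATR), 5 and 1 (CHEK2), 4 and 1 (CHEK1) and 1 and 0 (53BP1). The counts for CHEK2, CHEK1 and 53BP1 lie near those shares of all genes. The adaptors STING1 and MYD88 were among the higher ones in all 4 kinase pairs, with STING1 at 0.86, 1.26, 1.38 and 0.43 for ATM, ATR, CHEK2 and CHEK1. STING1 means were 8.91 in shATM-3, 8.94 in shATR-4, 9.29 in shCHK2-1 and 8.65 in shCHK1-4, against 9.32 in shControl and 9.08 in wild type. The highest MYD88 mean was that of wild type (8.58). CGAS means ran the other way: 6.10 in shATM-3 and 6.58 in shATM-1, 6.23 in shATR-4 and 6.68 in shATR-3. They were 6.60 in shCHK2-1 and 7.05 in shCHK2-2, and 6.20 in shCHK1-4 and 6.53 in shCHK1-3.

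Of 30 further interferon-stimulated genes, 18 were higher and 1 lower in the ATM pair, 20 and 1 in the ATR pair, 12 and 3 in the CHEK2 pair, 11 and 3 in the CHEK1 pair and 5 and 1 in the 53BP1 pair. The death ligand gene TNFSF10 was higher by 2.84, 2.52, 2.04 and 1.03 in the ATM, ATR, CHEK2 and CHEK1 pairs, with 1 of 3 arrays above background in each partner line. UBE2L6, the conjugating enzyme of ISG15, was higher by 1.91, 1.64 and 1.74 for ATM, ATR and CHEK2 and not called for CHEK1 (0.09), and it was above background on 0 arrays of the sh53BP1 lines. The chemokine CXCL10 was called higher in the ATM and ATR pairs, being above background on 0 arrays of shATM-1 and shATR-3, and its means were 6.79 ± 0.12 in shATM-3 and 6.26 ± 0.08 in shATR-4, against 6.74 ± 0.28 in shControl (SD, n = 3). APOBEC3B, a DNA cytidine deaminase, was called higher in all 5 pairs, and was above background on 0 or 1 array of each second line.

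**Figure D5:**
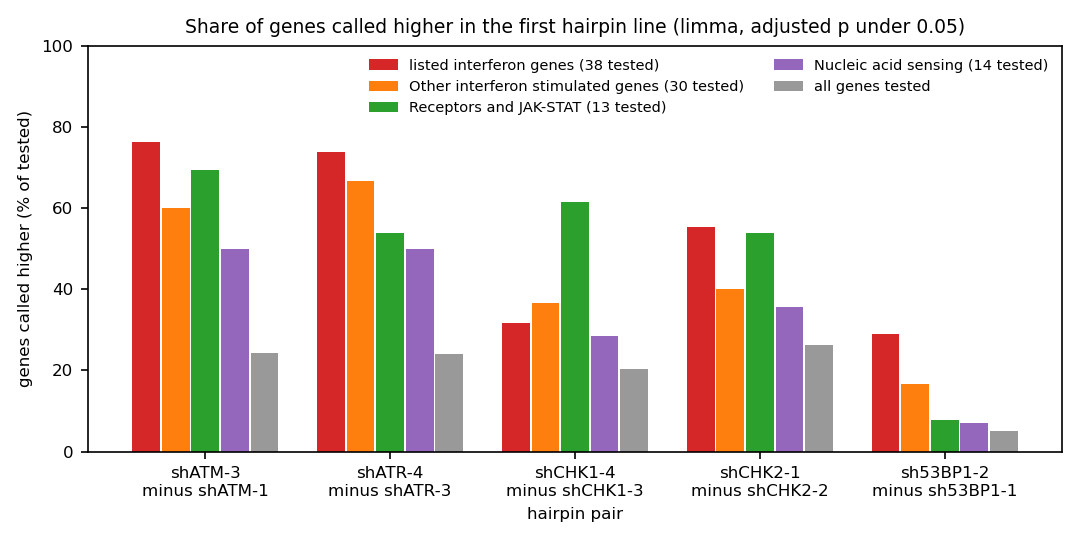
Share of tested genes called higher in the first-named line of each hairpin pair, for the listed interferon genes, 3 related lists and all genes tested (bars, percent of tested). The bars of the listed genes stand at 76.3% and 73.7% in the ATM and ATR pairs, where those of all genes stand at 24.4% and 24.1%.

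Over the 12 group means, the single genes whose level ran closest to the average of the 38 were IFI6 (r = 0.958), ISG15 (0.957) and IRF9 (0.946), each against the average of the other genes, and EPSTI1 ran farthest from it (-0.41). Among genes outside the list, SHC4, which encodes a signalling adaptor, had the highest correlation (r = 0.966), followed by ASB9 (0.952), USP11 (0.942), CLTRN (0.937), IFI30 (0.932), HELZ2 (0.929), SDC4 (0.929), SEC61A1 (0.928), GBP6 (0.928) and KRABD3 (0.926). IFI30 and HELZ2 are interferon-stimulated genes. The 12 points share the arrays and the normalization, and the hairpin lines are not independent, so these values describe the series only. All differences above come from background-corrected signals. The log2 table of the authors, which keeps the background, gave smaller ones: over the 596 called results its differences had a median of 0.566 times the size, and 400 were smaller by over 1.5 times.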

How the data were processed

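Bead intensity values and detection p-values of 36 arrays, and a log2 table of the same arrays, were deposited by the authors. The deposited intensity signals were neither normalized nor background-subtracted, judged by the file's label and values. A detection p-value stands beside each signal, per the file headers, in steps that fit a rank among 770 negative control bead types. The deposited log2 values equalled quantile normalized log2 signals to within 0.0013, and their method is not stated. Samples were grouped by the labels' titles; slide and scan order were not given. limma's neqc turned the intensities into log2 values after normexp background correction and quantile normalization (limma 3.58.1, R 4.3.3, offset 16), the negative controls being inferred from the detection p-values. A probe was kept if every array of some group had a detection p under 0.01, and each gene was read from its kept probe with the highest mean, leaving 11048 genes. Of 47231 probes, 17110 had no gene symbol and 8 several, and these were not used. Symbols are those of the platform annotation, updated through RefSeq.

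One limma model with 12 group means was fitted over all genes and 36 arrays, with empirical Bayes moderation and Benjamini-Hochberg adjustment per comparison. Calls are adjusted p under 0.05. The analysis was tested on simulated data. The 42 genes, the related lists, the tests and the order of the hairpin lines were chosen with earlier results of these data known. Named were the genes of that list, up to 6 genes per related list and the 10 outside genes most correlated with the list's average. Replicates were labelled biological; with 3 arrays per group, their number limits precision. Replicate numbers did not pair the samples: the mean correlation of deviations was -0.000629 for arrays with the same number and 0.000385 for others. Alternatives were the deposited values, no background correction, no dim-probe filter, a replicate block, a fit of only the 2 groups compared, other probes and leaving out each array. Figures used matplotlib 3.10.9 in Python 3.11.15.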

Additional observations from a re-analysis of the deposited data

Results flagged for a closer look

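For 19 gene and target combinations the hairpin lines of 1 target were called on opposite sides of shControl. The share of all genes called in this way was not computed. Of all genes, 58.3% (shATM-3) to 68.4% (shCHK2-2) were called against shControl in the kinase lines. Within the kinase pairs 32.4% (CHEK1) to 45.4% (CHEK2) were called, so the 19 combinations are a description only. For ATM (shATM-3 minus shATM-1, log2) these were IFI6 (3.68; 2.95 above shControl in shATM-3, -0.73 in shATM-1), OASL (3.16), IFI27 (3.09), IFI44 (2.85), DDX60 (2.13), SAMD9 (1.91), HERC5 (1.67) and LGALS3BP (0.86). For ATR (shATR-4 minus shATR-3) they were OASL (2.94), IFI6 (2.93), SAMD9 (2.27), IFI27 (2.21) and IRF9 (1.39). For CHEK2 (shCHK2-1 minus shCHK2-2) they were IFI6 (2.05), SAMD9 (1.71), IFI44 (1.52), IRF9 (1.44) and DDX60 (0.89), and for CHEK1 (shCHK1-4 minus shCHK1-3) IRF9 (0.83). These are fitted differences. They are not sizes for OASL and IFI27 (0 arrays above background in shATM-1 and shATR-3) or for DDX60 (0 in shATM-1 and shCHK2-2), for which the bounds given with the results apply. IFI27 was also on 0 shControl arrays and OASL on 1, so their calls below shControl compare signals at or near background. With its second probe OASL turned sign there and was not called (0.11 in shATM-1, 0.15 in shATR-3). For 6 of the 19, a call against shControl was lost without certain single arrays. HERC5 in shATM-1 lost it without shControl replicate 1 (-0.44) or 2 (-0.22) or shATM-1 replicate 1 (-0.44) or 2 (-0.28), and OASL in shATM-1 without shControl replicate 2 (-0.23) or shATM-1 replicate 2 (-0.35) or 3 (-0.37). OASL in shATR-3 lost it without shControl replicate 2 (-0.23) or shATR-3 replicate 1 (-0.35) or 2 (-0.28), and IRF9 in shATR-3 without shControl replicate 1 (-0.27) or 3 (-0.24) or shATR-3 replicate 2 (-0.19). DDX60 in shCHK2-1 lost it without shControl replicate 1 (0.37) or 3 (0.32) or shCHK2-1 replicate 1 (0.37) or 3 (0.29), and LGALS3BP in shATM-3 without shControl replicate 1 (0.28) or 3 (0.30) or shATM-3 replicate 1 (0.27) or 3 (0.30).

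The difference between hairpin lines differed between targets in an interaction test for 6 of 38 genes between ATM and ATR (4.32% of all genes), 24 between ATM and CHEK1 (10.6%), 16 between ATM and CHEK2 (10.7%) and 24 between ATM and 53BP1 (28.8%). It differed for 22 genes between ATR and CHEK1 (8.19%), 12 between ATR and CHEK2 (6.31%) and 25 between ATR and 53BP1 (26.8%). It differed for 10 between CHEK1 and CHEK2 (10.9%), all larger for CHEK2, for 9 between CHEK1 and 53BP1 (19.3%) and for 17 between CHEK2 and 53BP1 (30.5%). The causes were not tested.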

How the results depend on the processing

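Of 596 called results of the listed genes, 26 lost the call with the deposited log2 values, 26 without background correction, 32 without the dim-probe filter, 6 with a replicate block, 33 with a fit of only the 2 groups compared and 53 with a gene's second probe. Leaving out 1 array lost the call in 277 of 3576 cases and reversed 0. The median difference fell to 0.59 (ATM pair), 0.52 (ATR pair) and 0.27 (CHEK2 pair) with the deposited values and also without background correction. The 11 calls of the sh53BP1 pair became 7 with the deposited values, without background correction, without the filter or with the second probe, 6 with only the 2 groups compared, and 6 to 8 with 1 array left out. Second probes reversed 16 results: against shControl, OASL (0.11), PARP9 (-0.018) in shATM-1 and IFIT3 (-0.091), OASL (0.15), PARP9 (-0.047) in shATR-3; against wild type, IFIT3 (-0.51), IFI6 (-0.19), PARP9 (-0.47) in shATM-1, IFIT3 (-0.52), SP100 (-0.11) in shATR-3, OAS1 (-0.12) in shATR-4, PARP9 (-0.25) in shCHK1-3, IFIT3 (-0.57), OASL (0.096) in shCHK2-2, OAS1 (-0.19) in sh53BP1-1 and OASL (0.21) in sh53BP1-2. The cause was not tested. Slide as a block was not run. Signal over background limits the genes given as bounds.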
